A study of Mus musculus with 4 samples.

Results

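The 36 genes described here are the enzymes, transporters and regulators of glycolysis together with genes known to be induced by low oxygen, measured by bulk RNA sequencing in B cells sorted from cervical lymph nodes. They were taken from the deposited table of 23418 gene symbols by name, and all 36 had reads and passed the filter on low counts. The tested mice carried the genotype NOD.B10 and the controls the genotype BL/10, with 2 libraries each. NOD.B10 mice have the autoimmune-prone NOD background with the H2 region of the B10 strain and serve in research on Sjögren's disease. No other allele, treatment, age or sex is given in the labels for either group, and they do not say whether a library came from 1 animal or from a pool, so the p-values measure the spread between these libraries, which may be technical. The comparison asks how B cells of the disease-prone strain differ from those of the control strain.

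Glycolysis splits glucose into pyruvate in the cytosol. Glucose enters through GLUT transporters, is trapped by hexokinase and committed by phosphofructokinase. The pyruvate is either turned into lactate and exported or taken into mitochondria. There pyruvate dehydrogenase, which the PDK kinases switch off, turns it into acetyl-CoA. HIF-1 alpha, a transcription factor that prolyl hydroxylases mark for destruction when oxygen is present, induces many of these genes in hypoxia and in activated lymphocytes. For that reason the genes were split into 16 hypoxia-inducible isoforms and responders (such as Slc2a1, Hk2, Pdk1, Pfkfb3, Egln3 and Vegfa) and 20 housekeeping or constitutive genes (such as Hk1, Aldoa, Gapdh, Pkm and Pdha1). The split is one of degree, since most of the housekeeping enzymes also respond to HIF-1 in other cells.

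Library totals ranged from 19328803 to 29372751 reads. B cell markers were strongly expressed in every library, with a summed level over 10 genes of 10330 and 10960 CPM (counts per 1e+06 reads of the scaled library size) in NOD.B10 and 9377 and 9560 CPM in BL/10. Of these 10 genes 0 were called lower and 1 was called higher, Fcer2a (log2 fold change 0.57, NOD.B10 over BL/10, edgeR adjusted p = 0.00287). All 20 T cell markers were called lower, with summed levels of 228 and 215 CPM in NOD.B10 and 761 and 867 CPM in BL/10, and no marker of this list was called higher. The median log2 fold change of this list was −5.24. Most of the NOD.B10 sum was Cd2 (166 and 153 CPM) and Lck (38.3 and 45.9 CPM), which fell less (log2 fold changes −0.37 and −0.73). Of 16 genes of dividing cells 9 were called lower, with sums of 288 and 262 CPM in NOD.B10 and 375 and 441 CPM in BL/10, and of 6 erythroid markers tested 3 were called lower, with sums of 11.7 and 6.35 CPM in NOD.B10 and 242 and 477 CPM in BL/10. Markers called lower also numbered 6 of 6 tested for natural killer cells, 3 of 8 for dendritic cells, 3 of 10 for macrophages and monocytes, 2 of 3 for neutrophils and 2 of 7 for plasma cells, and none of these lists had a marker called higher. The summed level of 18 immediate-early genes differed within NOD.B10 at 4424 and 2274 CPM, against 3216 and 2954 CPM in BL/10. The T cell gene Trat1 and the erythroid gene Slc4a1 had 0 reads in both NOD.B10 libraries. The part of these other cells in the results below was not tested, and in bulk libraries fewer cells of a type and less RNA per cell cannot be told apart.

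Of the 36 genes, 6 were lower in NOD.B10 and 0 were higher at an adjusted p under 0.05 (edgeR quasi-likelihood test with Benjamini-Hochberg adjustment over 13075 genes), while 30 were not called. The genes that fell were Pdk1, Hk2, Gapdh, Ddit4, Slc16a1 and Ldhb. By comparison 15.2% of all tested genes were called, 8.63% lower and 6.55% higher, against 16.7% lower among these 36, a share that rests on 6 genes. At an unadjusted p under 0.05 stood 13 of the 36, or 36.1%, all of them lower in NOD.B10, against 26.8% of all genes. DESeq2 and limma-voom called the same 6. Leaving out single libraries gave 5 calls without BL/10 library 2 and 8 without BL/10 library 1. The direction of the remaining genes was mixed, with log2 fold changes (log2FC, NOD.B10 over BL/10) between −2.67 and 0.34. The median over all 36 was −0.24, against −0.00321 for all genes tested.

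Hypoxia-inducible and housekeeping genes differed in how they were spread. Of the 16 inducible genes 3 were called lower (Pdk1, Hk2 and Ddit4), or 18.8%, against 8.63% of all genes. Their median log2 fold change was −0.48 and 14 values were negative. Of the 20 housekeeping genes 3 were called lower (Gapdh, Slc16a1 and Ldhb), or 15%, so the classes were similar in the share called. The housekeeping median was −0.07 and 12 values were negative. Both NOD.B10 libraries lay below both BL/10 libraries for 11 of the 16 inducible genes (68.8%), where 27.7% of all genes did so. The same held for 6 of the 20 housekeeping genes (30%), near the share of all genes. Together these were 17 of 36 (47.2%). The opposite arrangement held for 1 inducible and 3 housekeeping genes, or 11.1%, against 27.9% of all genes. The difference between the classes was not tested, and with 2 libraries a group such an arrangement is a weak description.

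**Figure D1:**
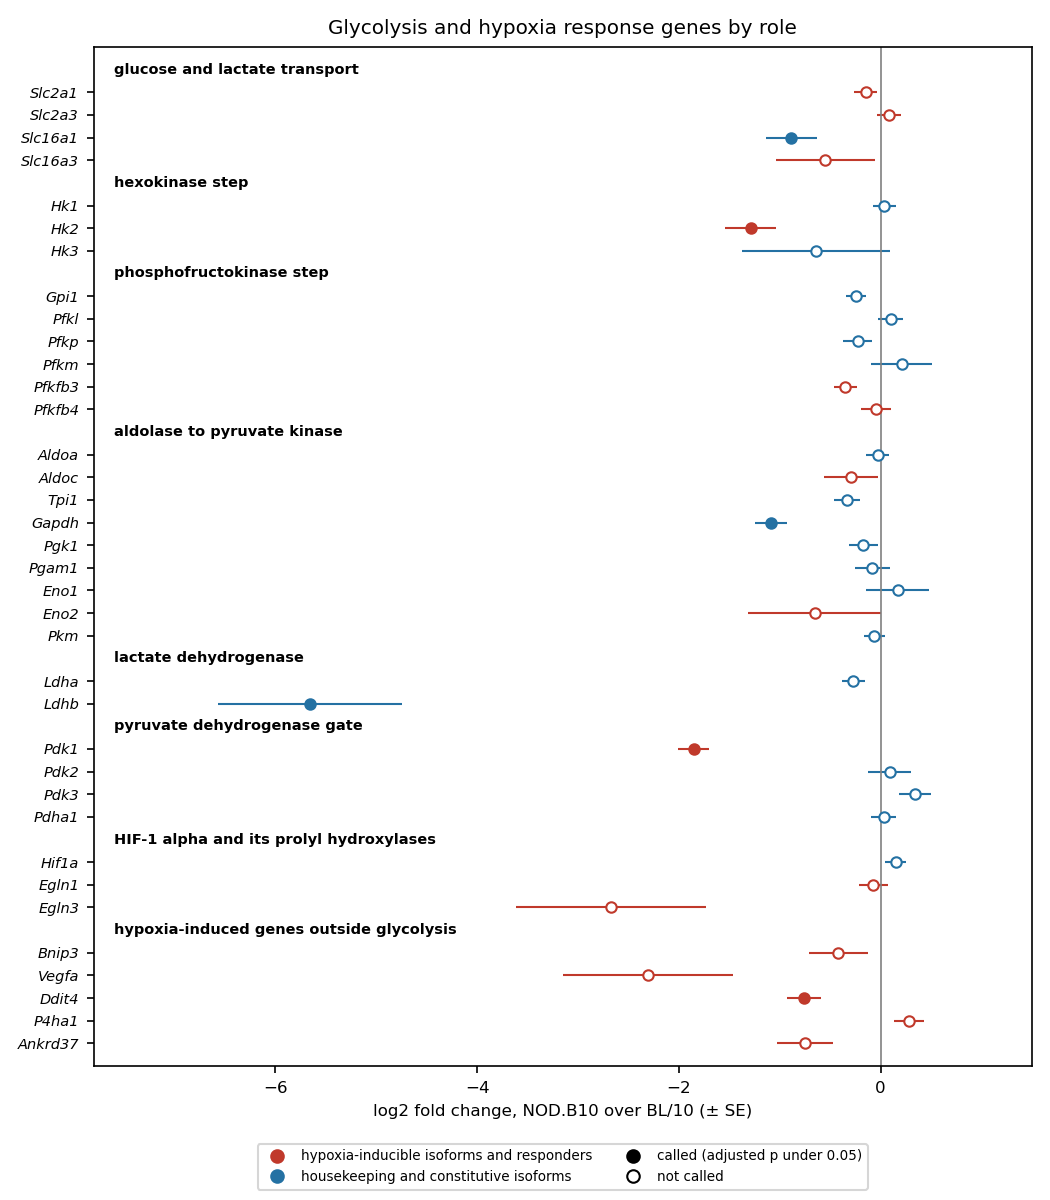
Log2 fold change of each of the 36 genes, NOD.B10 over BL/10, with its standard error as a horizontal bar, grouped by role. Red marks hypoxia-inducible genes, blue housekeeping genes, and filled points the 6 genes called at an adjusted p under 0.05. Pdk1, Hk2, Gapdh, Ddit4, Slc16a1 and Ldhb lie left of 0, and no called gene lies right of it.

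The gene with the smallest adjusted p was Pdk1, which encodes a kinase that shuts pyruvate dehydrogenase and so limits the turning of pyruvate into acetyl-CoA. Pdk1 (chromosome 2, 71873215 to 71903858) stood at 28.0 and 36.3 CPM in the NOD.B10 libraries and at 127 and 105 CPM in the BL/10 libraries. The groups were far apart relative to their spread. The mean was 32.1 ± 5.88 CPM in NOD.B10 and 116 ± 15.6 CPM in BL/10 (SD, n = 2 each), 3.61-fold lower in NOD.B10 (log2FC −1.85 with an SE of 0.15, edgeR adjusted p = 4.82e-06). Every alternative kept the call, with log2 fold changes from −2.06 to −1.69. The other kinases measured at this step were not called. Pdk2 stood at 10.4 and 11.1 CPM in NOD.B10 and 10.4 and 9.89 CPM in BL/10 (log2FC 0.09 with an SE of 0.21). Pdk3, on the X chromosome, stood at 24.2 and 24.0 CPM in NOD.B10 and 19.7 and 18.4 CPM in BL/10, which was not called (log2FC 0.34 with an SE of 0.16, edgeR adjusted p = 0.203). Pdha1, the catalytic subunit of the dehydrogenase that these kinases act on, had 71.3 and 66.5 CPM in NOD.B10 and 62.8 and 72.1 CPM in BL/10, with overlapping groups, and its exons overlap those of Map3k15 on the other strand by 603 bases.

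The make-up of the PDK family is best seen in shares. Per length (RPKM, which is CPM per kilobase of gene length), Pdk1 made up 24.6% and 29.5% of the summed level of Pdk1, Pdk2 and Pdk3 in NOD.B10, and 63.2% and 60.2% in BL/10. Pdk3 held 54.6% and 50% in NOD.B10 and 25.1% and 27.0% in BL/10. Per length, Pdk3 thus ranked above Pdk1 in both NOD.B10 libraries and below it in both BL/10 libraries. This switch depends on the division by length. In CPM, Pdk1 stood above Pdk3 in NOD.B10 as well, at 28.0 and 36.3 CPM against 24.2 and 24.0 CPM. The difference in the Pdk1 share was −34.7 percentage points. An exact two-sided permutation test of 2 against 2 libraries gave p = 0.3333, the smallest it can give, and the same holds for every isoform share below whose groups do not overlap.

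Hexokinase traps glucose in the cell, and Hk2 is the isoform that HIF-1 and growth signals induce while Hk1 is the constitutive one. Hk2 (chromosome 6, 82725025 to 82774454) had 7.21 and 4.97 CPM in NOD.B10 and 12.6 and 17.1 CPM in BL/10. Both NOD.B10 libraries were below both BL/10 libraries. The mean was 6.09 ± 1.58 CPM in NOD.B10 and 14.8 ± 3.20 CPM in BL/10 (SD, n = 2 each), 2.45-fold lower in NOD.B10 (log2FC −1.29 with an SE of 0.26, edgeR adjusted p = 0.00409), and all alternatives kept the call. Hk1 showed no such fall, with 107 and 107 CPM in NOD.B10 and 98.9 and 109 CPM in BL/10 (log2FC 0.04 with an SE of 0.11). Hk3, an isoform of myeloid cells, had between 6 and 31 reads a library and overlapping groups. Per length, Hk1 carried 94.4% and 95.5% of the hexokinase level in NOD.B10 and 89.4% and 88.1% in BL/10, and Hk2 carried 5.21% and 3.65% in NOD.B10 and 9.30% and 11.3% in BL/10. Hk2 was therefore a minor isoform in all 4 libraries, and the summed level of the 3 hexokinase genes was 114 and 112 CPM in NOD.B10 and 112.5 and 126.5 CPM in BL/10.

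**Figure D2:**
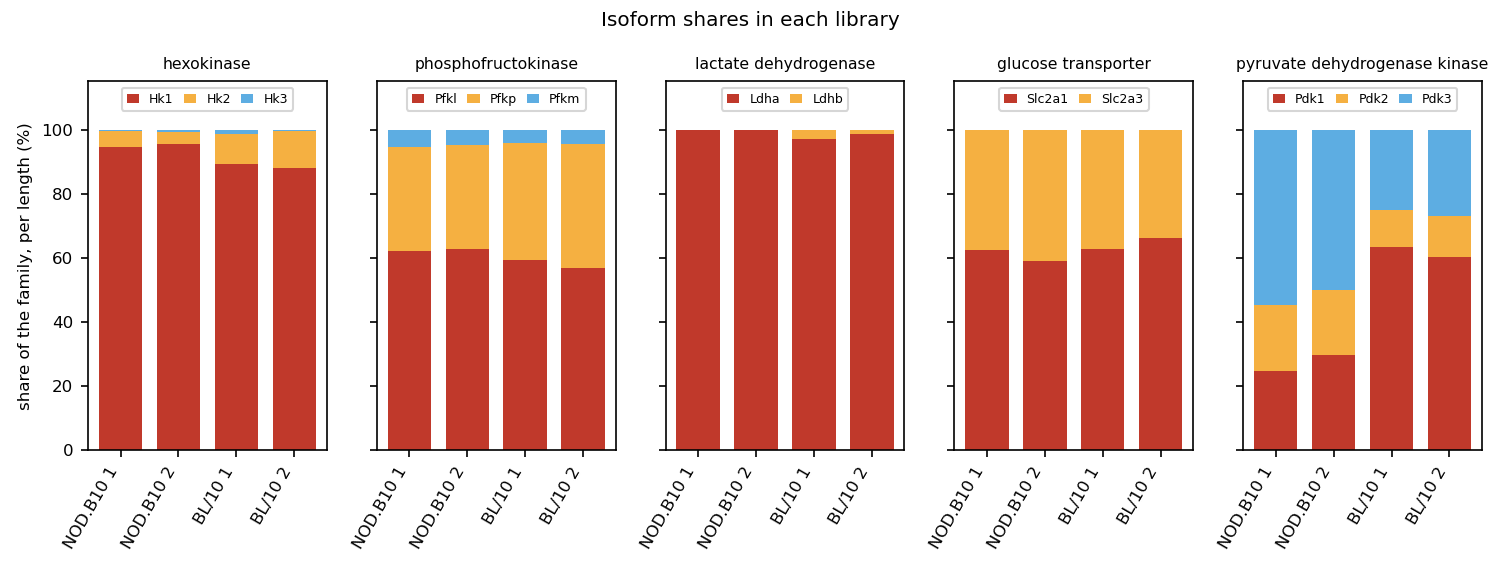
Share of each isoform in the summed per-length level of its family (percent), 1 stacked bar per library, NOD.B10 libraries left and BL/10 libraries right. The Pdk1 share is 24.6% and 29.5% in NOD.B10 against 63.2% and 60.2% in BL/10, and the Hk2 share is smaller in both NOD.B10 libraries. Slc2a1 holds 62.3% and 58.8% of the glucose transporter pair in NOD.B10 and 62.6% and 66.2% in BL/10.

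The third inducible gene that fell was Ddit4, which encodes REDD1, an inhibitor of mTORC1 induced by hypoxia, glucocorticoids and other stresses. Ddit4 (chromosome 10, 59949675 to 59951770) had 53.9 and 50.6 CPM in NOD.B10 and 72.1 and 105 CPM in BL/10. The groups did not overlap, but the BL/10 libraries were far from each other. The mean was 52.2 ± 2.27 CPM in NOD.B10 and 88.3 ± 23.0 CPM in BL/10 (SD, n = 2 each), 1.69-fold lower in NOD.B10 (log2FC −0.76 with an SE of 0.17, edgeR adjusted p = 0.0113), and the log2 fold change ran from −1.002 to −0.48 over the alternatives, all of which kept the call.

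The promoters of these 3 genes were searched for the core letters of the hypoxia response element, the site that HIF binds. They were chosen as the inducible genes that were called lower. Pgk1, a housekeeping enzyme known to respond to HIF-1 whose RNA was not called, is shown for comparison. The sequences are from RefSeq (GRCm38.p6) and run 5′ to 3′ on the gene's strand, up to a transcription start. Pdk1 is at chr2:71872974-71873223 on the plus strand, which reaches past the gene start of 71873215 given above. Hk2 is at chr6:82774455-82774704 on the minus strand. Ddit4 is at chr10:59951835-59952020 on the minus strand, which stops before an annotated exon, and Pgk1 at chrX:106186850-106187099 on the plus strand. Capitals mark ACGTG or GCGTG on either strand, so that a match on the other strand reads CACGT or CACGC.
Pdk1: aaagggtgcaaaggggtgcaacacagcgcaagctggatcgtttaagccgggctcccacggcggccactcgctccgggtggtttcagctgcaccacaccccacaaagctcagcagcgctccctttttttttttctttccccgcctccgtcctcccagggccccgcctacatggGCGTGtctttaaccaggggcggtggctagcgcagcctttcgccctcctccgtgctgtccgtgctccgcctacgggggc
Hk2: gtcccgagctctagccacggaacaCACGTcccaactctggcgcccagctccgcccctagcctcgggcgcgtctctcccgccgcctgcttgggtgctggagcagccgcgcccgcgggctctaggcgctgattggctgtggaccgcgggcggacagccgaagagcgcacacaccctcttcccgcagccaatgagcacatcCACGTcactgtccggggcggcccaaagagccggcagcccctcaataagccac
Ddit4: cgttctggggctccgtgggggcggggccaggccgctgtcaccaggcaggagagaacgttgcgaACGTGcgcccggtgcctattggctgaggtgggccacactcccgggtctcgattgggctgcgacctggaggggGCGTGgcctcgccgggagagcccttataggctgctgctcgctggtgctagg
Pgk1: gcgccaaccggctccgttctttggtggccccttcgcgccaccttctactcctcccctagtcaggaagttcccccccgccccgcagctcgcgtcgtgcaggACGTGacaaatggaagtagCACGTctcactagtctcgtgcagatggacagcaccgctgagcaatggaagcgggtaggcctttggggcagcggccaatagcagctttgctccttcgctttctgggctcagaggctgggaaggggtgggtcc

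The Pdk1 window shown had 1 match, of the GCGTG form, and the window of a second Pdk1 start inside the gene had 0. The Hk2 window had 2 and the Pgk1 window 2, all of the ACGTG form, and the Ddit4 window had 1 of each. Such letters are common near gene starts. Over the 250 bases before the start, at least 1 match was present in 40 of 50 windows of these genes (80.0%), in 54.8% of the windows of all tested genes and in 38.6% of all RefSeq windows. By class, either form was found in 16 of 19 windows of inducible genes (84.2%) and 24 of 31 windows of housekeeping genes (77.4%). ACGTG alone was found in 12 of 19 windows of inducible genes and 13 of 31 windows of housekeeping genes, and in 21.3% of the windows of tested genes. Among the windows of called genes 6 of 7 had a match of either form, and among those of genes not called 34 of 43 had one. For ACGTG alone the numbers were 3 of 7 (42.9%) and 22 of 43 (51.2%). The palindrome CACGTG holds ACGTG on both strands and was present in 7 of the 50 windows. Windows of 1 gene can overlap, Slc2a3 had none in the table, and a match is a description of letters and not a binding site.

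Among housekeeping enzymes the clearest fall was that of Gapdh, which oxidises glyceraldehyde 3-phosphate and often serves as a reference gene. Gapdh (chromosome 6, 125161852 to 125166467) had 15.7 and 15.4 CPM in NOD.B10 and 33.0 and 33.0 CPM in BL/10. Replicates were almost identical and the groups stood apart. The mean was 15.5 ± 0.221 CPM in NOD.B10 and 33.0 ± 0.0586 CPM in BL/10 (SD, n = 2 each), 2.12-fold lower in NOD.B10 (log2FC −1.09 with an SE of 0.16, edgeR adjusted p = 3.57e-04), with −1.11 to −1.07 over the alternatives. The Gapdh count is uncertain in size. Of the 50-base stretches in its annotated transcripts, 58.4% also occurred in transcripts of other genes, and 213 annotated pseudogenes shared at least 1 of them. Its per-length level of 12.6 RPKM in NOD.B10 and 26.8 RPKM in BL/10 lay below that of Tpi1, the enzyme just before it, at 27.4 RPKM in NOD.B10 and 34.6 RPKM in BL/10. By contrast Pdk1, Hk2, Ddit4 and Slc16a1 shared 0 such stretches with other transcripts.

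**Figure D3:**
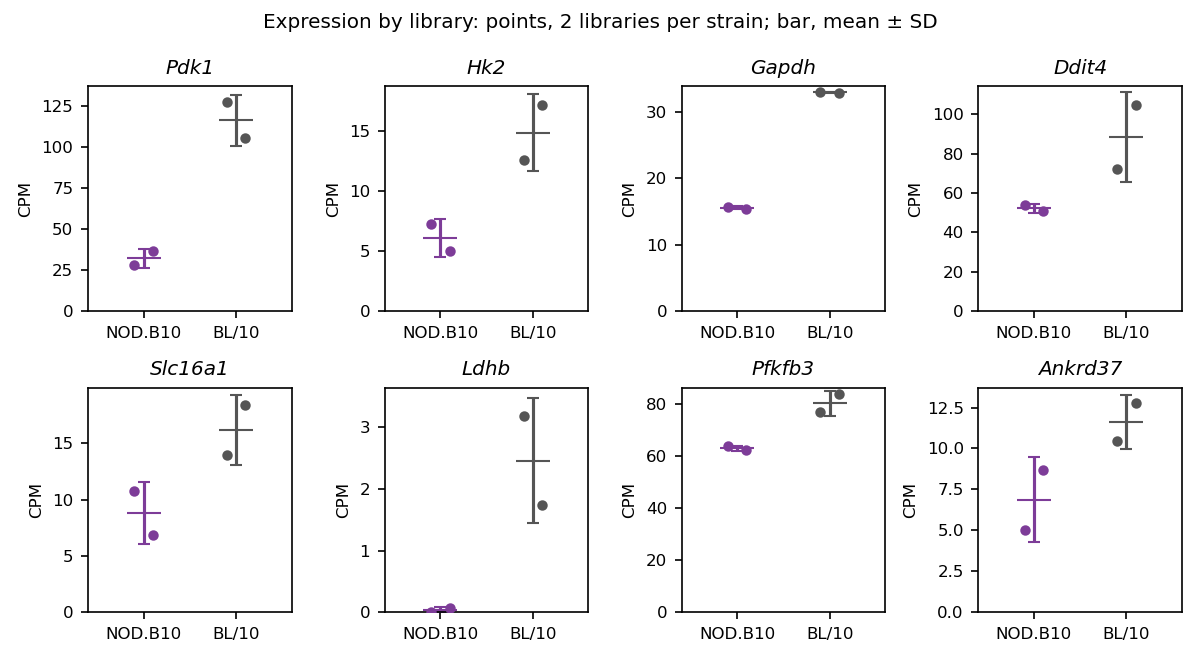
Level in CPM of the 6 called genes and of Pfkfb3 and Ankrd37, with NOD.B10 left and BL/10 right in each panel. Points are libraries, and the bar gives mean ± SD (n = 2). In all 8 panels both NOD.B10 points lie below both BL/10 points, and Pfkfb3 and Ankrd37 were not called.

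The other enzymes between aldolase and pyruvate kinase were not called. Aldoa, which cleaves fructose bisphosphate, had the highest per-length level of the 36 genes in both strains, at 187 ± 1.88 RPKM in NOD.B10 and 191 ± 27.7 RPKM in BL/10 (SD, n = 2 each). Its log2 fold change was −0.03 (SE 0.11). Pkm, pyruvate kinase, followed at 106 ± 4.80 RPKM in NOD.B10 and 111 ± 5.66 RPKM in BL/10, and its log2 fold change was −0.06 (SE 0.10). These neighbours in the order did not change places. Gpi1, which turns glucose 6-phosphate into fructose 6-phosphate, followed Pkm at 91.7 ± 1.76 RPKM in NOD.B10 and 109 ± 1.15 RPKM in BL/10, a difference that was not called (log2FC −0.25 with an SE of 0.10, edgeR adjusted p = 0.123). Tpi1, triose phosphate isomerase, was likewise not called, with 42.6 and 45.2 CPM in NOD.B10 and 56.5 and 54.2 CPM in BL/10 (log2FC −0.33 with an SE of 0.12, edgeR adjusted p = 0.0955). Pgk1 and Pgam1, which catalyse the next steps, had log2 fold changes of −0.17 and −0.08, and their groups overlapped. They shared 68.0% and 41.5% of their 50-base stretches with other transcripts, so their levels are uncertain too. For Aldoa, Pkm and Gpi1 the shares were 6.57%, 23.7% and 24.5%. The order by level given above is therefore one of counted reads, and genes with near copies may be placed too low. Aldoc, the brain-type aldolase, and Eno2, the neuronal enolase, are inducible isoforms with low levels, and neither was called (log2 fold changes −0.30 and −0.65, SE 0.27 and 0.66).

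Enolase needs separate mention because its ubiquitous gene has a near copy. Eno1 had 4.15 and 5.68 CPM in NOD.B10 and 4.39 and 4.38 CPM in BL/10, a difference within the spread of NOD.B10 (log2FC 0.17 with an SE of 0.32). Its copy Eno1b, counted under the older symbol Gm5506, had 31.6 and 30.9 CPM in NOD.B10 and 7.67 and 7.68 CPM in BL/10. The copy therefore outnumbered Eno1 in all 4 libraries, and the strains stood apart in it (log2FC 2.02 with an SE of 0.17, edgeR adjusted p = 3.63e-06), with 2.00 to 2.04 over the alternatives. The transcripts of Eno1b held 48.4% of the 50-base stretches of Eno1, so reads of these genes cannot be fully told apart. Summed over both symbols, a sum chosen after the values were seen, the level was 35.7 and 36.5 CPM in NOD.B10 and 12.1 and 12.1 CPM in BL/10.

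The RNA for phosphofructokinase, the committed step, came mainly from the genes of the liver-type and platelet-type subunits in both strains. Pfkl had 78.2 and 83.1 CPM in NOD.B10 and 69.9 and 80.8 CPM in BL/10, Pfkp had 43.9 and 46.1 CPM in NOD.B10 and 46.1 and 59.3 CPM in BL/10, and none of the 3 subunit genes was called. Per length, Pfkl held 62.1% and 62.6% of the family in NOD.B10 and 59.3% and 56.6% in BL/10, and the muscle-type Pfkm held 5.47% and 4.96% in NOD.B10 and 4.29% and 4.63% in BL/10. Exons of Pfkp overlap those of Pitrm1 on the other strand by 748 bases, so the Pfkp count may hold reads of that gene. Of the enzymes that make and remove fructose 2,6-bisphosphate, the activator of this step, Pfkfb3 had 63.9 and 62.4 CPM in NOD.B10 and 77.0 and 83.9 CPM in BL/10. Its groups did not overlap, but the difference was not called (log2FC −0.35 with an SE of 0.12, edgeR adjusted p = 0.0643). It passed with no filter (adjusted p = 0.047) and on dropping BL/10 library 1 (adjusted p = 0.0422). Pfkfb4 had overlapping groups, with 30.7 and 36.4 CPM in NOD.B10 and 36.1 and 33.3 CPM in BL/10.

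Of the 4 glucose and lactate transporters 1 was called. Slc2a1 (GLUT1), the main inducible glucose transporter, had 84.9 and 75.2 CPM in NOD.B10 and 88.2 and 89.3 CPM in BL/10, and was not called (log2FC −0.15 with an SE of 0.12). Slc2a3 (GLUT3) had 79.0 and 81.0 CPM in NOD.B10 and 81.1 and 70.1 CPM in BL/10, with overlapping groups (log2FC 0.08 with an SE of 0.12). Slc16a1 (MCT1), which carries lactate and pyruvate across the membrane, fell. Slc16a1 (chromosome 3, 104638664 to 104658462) had 10.7 and 6.85 CPM in NOD.B10 and 14.0 and 18.4 CPM in BL/10, 1.85-fold lower in NOD.B10 (log2FC −0.89 with an SE of 0.25, edgeR adjusted p = 0.0308). This call rested on single libraries: it was lost on dropping BL/10 library 2 (adjusted p = 0.107) and on dropping NOD.B10 library 2 (adjusted p = 0.136). Slc16a3 (MCT4), the inducible lactate exporter, had only 21 and 44 reads in NOD.B10 and 53 and 61 reads in BL/10 and was not called (log2FC −0.55 with an SE of 0.49).

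Lactate dehydrogenase RNA was almost wholly Ldha in both strains. Ldha, the subunit that favours lactate formation, had 131 and 139 CPM in NOD.B10 and 151 and 175 CPM in BL/10. The groups did not overlap, and the difference was not called (log2FC −0.27 with an SE of 0.12, edgeR adjusted p = 0.152) except on dropping BL/10 library 1 (adjusted p = 0.0356). Ldhb, the heart-type subunit, had 0 and 2 reads in NOD.B10 and 94 and 45 reads in BL/10. Ldhb (chromosome 6, 142490249 to 142507957) was called lower (edgeR adjusted p = 6.88e-04), and the ratio of BL/10 to NOD.B10 reads per library size was 56.2, with a 95% interval of 15.3 to 469 that covers counting error only. The fitted log2FC was −5.66, −8.94 when NOD.B10 library 2 was dropped and −4.91 when NOD.B10 library 1 was, because 1 of these libraries had 0 reads. Of the 50-base stretches of Ldhb, 21.0% also occurred in other transcripts. Its level was low in BL/10 as well, at 3.18 and 1.75 CPM, or 3.05% and 1.47% of the per-length level of the pair, against 0% and 0.084% in NOD.B10. The lower T cell sums of NOD.B10 are given above, and their part in this difference was not tested. Within BL/10 the sum of the 20 T cell markers was 761 CPM in the first library and 867 CPM in the second. Most single markers were higher in the second library, such as Cd3e (43.0 and 59.4 CPM). A minority were higher in the first, such as Cd4 (41.4 and 35.2 CPM). The sum of 7 plasma cell markers was 1312 and 678 CPM in BL/10 and 695 and 618 CPM in NOD.B10. Its difference came largely from Jchain, which was not called and had 14.1 and 7.21 CPM in NOD.B10 and 608 and 119 CPM in BL/10. The part of plasma cells in the Ldhb values was not tested either.

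None of the 3 oxygen-sensing genes was called, and their values differed in size. Hif1a itself had 212 and 204 CPM in NOD.B10 and 188 and 187 CPM in BL/10, a small difference in the upward direction that was not called (log2FC 0.15 with an SE of 0.10, edgeR adjusted p = 0.418). Its RNA says nothing about the protein, whose stability is what oxygen controls. Egln1, the main prolyl hydroxylase, had 42.8 and 54.3 CPM in NOD.B10 and 49.2 and 53.2 CPM in BL/10, with overlapping groups. Egln3, a hydroxylase strongly induced by hypoxia, had 2 and 4 reads in NOD.B10 and 12 and 35 reads in BL/10. The groups did not overlap, but the BL/10 libraries stood far from each other, at 0.405 and 1.36 CPM, and the gene was not called (log2FC −2.67 with an SE of 0.94, edgeR adjusted p = 0.0718).

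The other hypoxia responders were sparse or varied. Vegfa, the angiogenic factor, had 6 and 2 reads in NOD.B10 and 31 and 21 reads in BL/10 and was not called (log2FC −2.31 with an SE of 0.85, edgeR adjusted p = 0.0851). The ratio of BL/10 to NOD.B10 was 5.26 with a counting interval of 2.48 to 12.8 for Vegfa, and 6.34 with an interval of 2.70 to 18.1 for Egln3. Ankrd37, an ankyrin repeat gene and HIF target, had 5.03 and 8.70 CPM in NOD.B10 and 10.5 and 12.8 CPM in BL/10 (log2FC −0.75 with an SE of 0.28, edgeR adjusted p = 0.0942). Its exons overlap those of Lrp2bp on the other strand by 349 bases. It was called with no filter (adjusted p = 0.0232) and on dropping NOD.B10 library 2 (adjusted p = 0.00319). Bnip3, a mitophagy receptor, shared 59.1% of its stretches with other transcripts and had overlapping groups at 8.66 and 5.48 CPM in NOD.B10 and 11.2 and 7.64 CPM in BL/10. P4ha1, a collagen prolyl hydroxylase, went the other way at 29.8 and 31.5 CPM in NOD.B10 and 25.5 and 25.0 CPM in BL/10, and was not called (log2FC 0.28 with an SE of 0.15, edgeR adjusted p = 0.262).

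**Figure D4:**
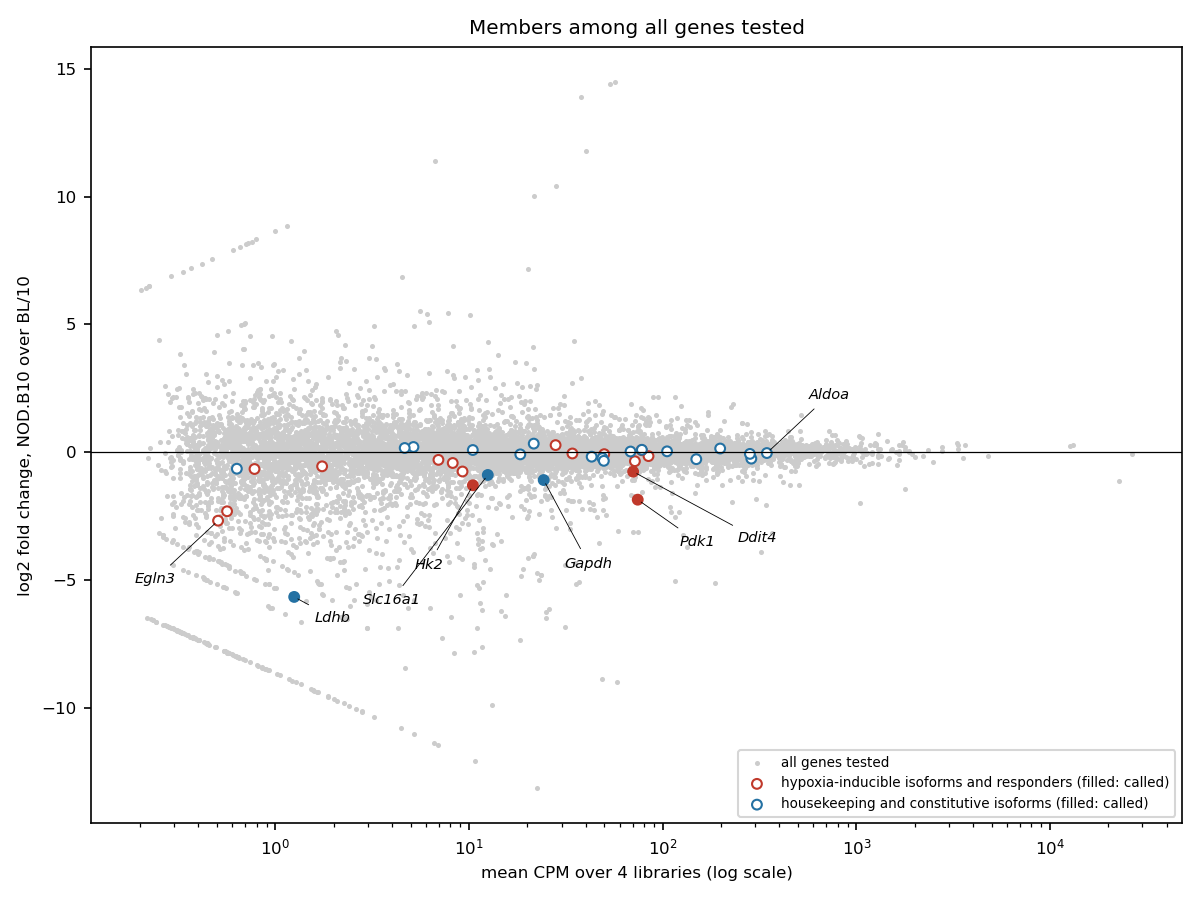
Log2 fold change (NOD.B10 over BL/10) against mean CPM over the 4 libraries (log scale) for all 13075 tested genes in grey, with the 36 genes in red (hypoxia-inducible) and blue (housekeeping), filled where called. Most of the 36 lie near 0 at high levels, Pdk1 lies at −1.85 and Ldhb at −5.66.

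Other genes of the same pathways were described through 6 further lists. Of 31 further hypoxia-induced genes tested, 6 fell (19.4%, against 8.63% of all genes) and 1 rose (3.23%, against 6.55%). Bnip3l, a mitophagy receptor related to Bnip3, fell to 81.5 and 83.0 CPM in NOD.B10, against 143 and 131 CPM in BL/10 (log2FC −0.73 with an SE of 0.11, edgeR adjusted p = 6.26e-04). Rora, a nuclear receptor also expressed in T and innate lymphoid cells, had 0 reads in both NOD.B10 libraries, which allows up to 0.0669 CPM over the group, and 25 and 37 reads in BL/10 (edgeR adjusted p = 0.00323). The gene that rose was Bhlhe40, a stress-responsive transcriptional repressor, at 111 and 90.6 CPM in NOD.B10 and 36.3 and 49.7 CPM in BL/10 (log2FC 1.23 with an SE of 0.16, edgeR adjusted p = 5.05e-04). The median of this list was −0.22.

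Of 17 genes of the HIF machinery 3 fell (17.6%, against 8.63% of all genes) and 0 rose by edgeR (against 6.55%). At an unadjusted p under 0.05 were 4 of them, or 23.5%, which is below the 26.8% of all genes. Cited2, which competes with HIF-1 alpha for the coactivator p300, had 24.6 and 22.5 CPM in NOD.B10 and 36.1 and 38.2 CPM in BL/10 (log2FC −0.66 with an SE of 0.15, edgeR adjusted p = 0.00844). Arnt2, a partner subunit, had 2 and 0 reads in NOD.B10 and 32 and 23 reads in BL/10, a ratio of BL/10 to NOD.B10 of 22.3 with a counting interval of 5.87 to 188, and was no longer called on dropping BL/10 library 1 (adjusted p = 0.0968) or NOD.B10 library 2 (adjusted p = 0.0675). Hif3a, an inhibitory alpha subunit, was 3.27 and 2.51 CPM in NOD.B10 and 5.61 and 6.36 CPM in BL/10 (edgeR adjusted p = 0.0433), a call lost in 7 of 12 alternatives, among them without either BL/10 library (adjusted p = 0.0943 and 0.157).

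Of 16 further glycolytic isoforms and side enzymes tested, 3 rose and 3 fell, or 18.8% each way, against 6.55% and 8.63% of all genes. Besides Eno1b, Pfkfb2 rose to 52.0 and 65.1 CPM in NOD.B10, against 43.1 and 39.7 CPM in BL/10 (edgeR adjusted p = 0.0277), a call lost on dropping BL/10 library 2 (adjusted p = 0.0534) and on dropping NOD.B10 library 2 (adjusted p = 0.280). Bpgm, which makes 2,3-bisphosphoglycerate in red cells, fell to 14.5 and 15.3 CPM in NOD.B10, against 51.0 and 87.7 CPM in BL/10 (log2FC −2.22 with an SE of 0.26, edgeR adjusted p = 0.00219). The summed erythroid level, like Bpgm, was lower in both NOD.B10 libraries and highest in BL/10 library 2, although only 3 of its 6 tested markers were called and Epor and Klf1 were not lower in NOD.B10 (log2FC 0.87 and 0.06). The part of these cells in the Bpgm values was not tested. Of 10 genes of the pentose phosphate pathway and its outlet 1 fell, a share of 10% near the 8.63% of all genes, and 0 rose by edgeR, with 6 (60%, against 26.8%) at an unadjusted p under 0.05. Prps2, a phosphoribosyl pyrophosphate synthetase, was at 86.9 and 86.3 CPM in NOD.B10 and 140 and 126 CPM in BL/10 (log2FC −0.62 with an SE of 0.11, edgeR adjusted p = 0.00248).

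In the list of pyruvate entry and the TCA cycle 3 of 29 genes fell and 1 rose, or 10.3% and 3.45%, near or below the 8.63% and 6.55% of all genes. Suclg2, the GTP-forming subunit of succinyl-CoA ligase, fell to 5.81 and 8.54 CPM in NOD.B10, against 22.7 and 25.3 CPM in BL/10 (log2FC −1.73 with an SE of 0.22, edgeR adjusted p = 1.09e-04), and its partner Suclg1 fell as well (log2FC −0.72 with an SE of 0.14). Fh1, fumarate hydratase, rose to 106 and 121 CPM in NOD.B10, against 81.5 and 74.6 CPM in BL/10, a call lost on dropping NOD.B10 library 2 (adjusted p = 0.0579). Of 20 genes around Myc and mTORC1 3 fell (15%, against 8.63% of all genes) and 0 rose by edgeR, with 5 (25%, against 26.8%) at an unadjusted p under 0.05. Txnip, which restrains glucose uptake, fell to 490 and 520 CPM in NOD.B10, against 830 and 641 CPM in BL/10 (log2FC −0.54 with an SE of 0.12, edgeR adjusted p = 0.0103). The Myc antagonists Mxd1 and Mxd4 fell (log2FC −0.57 and −0.49), but both missed the threshold on dropping NOD.B10 library 2 (adjusted p = 0.0715 and 0.183), Mxd4 also on dropping BL/10 library 1 (adjusted p = 0.126).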

How the data were processed

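RNA was sequenced from B cells sorted from cervical lymph nodes, 2 NOD.B10 and 2 BL/10 libraries. The values the authors deposited are raw counts for each gene symbol beside a gene length. HISAT2 2.1.0, featureCounts, Subread 1.6.5, SAMtools 1.3 and build mm10 are named in the submitters' processing notes. The sources used here do not give the annotation, the strand setting or the treatment of multiply aligned reads, so genes with near copies or overlapping neighbours have uncertain counts. How NOD sequence variants affect alignment to mm10 was not tested.

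The deposited counts were tested with edgeR 4.0.16 in R 4.3.3 (glmQLFit with robust dispersion, glmQLFTest, two-sided, TMM factors), strain as the only term. The filter filterByExpr (minimum count 10, minimum total 15) left 13075 genes, over which p-values were adjusted (Benjamini-Hochberg, call at adjusted p under 0.05). CPM uses TMM-scaled library sizes, and RPKM divides it by the deposited gene length. The SE is the unshrunken fold change over the square root of F. Alternatives used DESeq2 1.42.0, limma 3.58.1 (voom), other factors and filters, a replicate block and leaving out each library. The fit was tested on simulated counts. Counting intervals are 95% Clopper-Pearson.

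Named genes are all members, plus up to 3 called genes with the smallest adjusted p from each further list. The members and lists were chosen with earlier results of these data known. Shared stretches of 50 bases and exon overlaps come from GENCODE M21 (GRCm38), coordinates and 250-base promoter windows from RefSeq GRCm38.p6, the assembly of mm10. All 36 members matched RefSeq and 35 had a window. No per-sample column was left unused.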

Additional observations from a re-analysis of the deposited data

How the results depend on the processing

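Over 12 alternatives (other scaling factors, filters, tests and dispersion, a replicate block, and each library left out), the 6 called genes stayed called in every setting except that Slc16a1 was no longer called on dropping BL/10 library 2 or NOD.B10 library 2. Of the values of single genes under an alternative, 421 kept their side of the threshold, 5 passed it newly (Pfkfb3 and Ankrd37 in 2 settings each, Ldha in 1) and 2 lost it (Slc16a1). With no filter 5 inducible genes were called lower instead of 3, with more genes tested (17058 instead of 13075); the cause was not tested. No setting moved the median of all genes by more than 0.1 on the log2 scale. The Hk3 share among hexokinases, −0.3325 percentage points in NOD.B10 minus BL/10, became 0.0392 without BL/10 library 1 and ran from −0.7043 to 0.0392 with single libraries left out; it rests on 6 to 31 reads a library. The fitted fold of Ldhb ran from −8.94 to −4.91 on the log2 scale and depends on the prior count, since 1 NOD.B10 library had 0 reads. The replicate numbers are not said to pair libraries, and the deviations of same-numbered libraries correlated at −0.0141 across genes. With a replicate block 6 of the 36 genes were called, the same 6. Egln3, Vegfa, Hk3, Eno2 and Slc16a3 had at most 61 reads in a library, so their values are imprecise. Arnt2 and Rora were called at similar read numbers, but with larger differences. The ratio of BL/10 to NOD.B10 was 22.3 for Arnt2, against 5.26 for Vegfa and 6.34 for Egln3, and Rora had 0 reads in NOD.B10. The part of depth in the missing calls was not tested.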
